A study of Mus musculus with 32 samples.

Results

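Genes that mark tissue macrophages, or the resident state of these cells, were followed through bulk RNA sequencing of 32 whole mouse bladders. The 10 genes were *Adgre1*, *Csf1r*, *Cd68*, *Mrc1*, *Cd163*, *Lyve1*, *Timd4*, *Folr2*, *Itgam* and *Trem2*, taken by symbol from the 32285 genes of the count table, in which each matched 1 row. All bladders came from female C57BL/6 mice, and each library was made from a single bladder. Untreated mice were taken at 2 months (young, n = 6), at 10 months (middle-aged, n = 5) and at 26 months (untreated old, n = 6). A further 3 groups of old mice were gavaged every month from 21 to 26 months of age, on 3 consecutive days each time. They received water (n = 5), a lipid and polyethylene glycol vehicle with ethanol (n = 4), or dasatinib at 5 mg/kg/day with quercetin at 50 mg/kg/day in that vehicle (D + Q, n = 6), a senolytic combination, that is, drugs meant to clear senescent cells. The untreated old mice were not gavaged, so every comparison with them includes the gavage, and that of D + Q also includes the vehicle. D + Q was also compared with vehicle and with water, while vehicle was not compared with water here. The comparisons between ages ask how macrophage transcripts in the bladder differ over life, and those between old groups ask whether the levels differ after D + Q, vehicle or water.

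Macrophages of adult tissues descend from embryonic precursors or from blood monocytes, and most depend on signaling through the CSF1 receptor, which binds the cytokines CSF1 and IL-34. Cells that have stayed long in a tissue, often beside vessels, are known for scavenger and uptake receptors such as LYVE1, CD163, the mannose receptor CD206 (*Mrc1*), the folate receptor FOLR2 and the phosphatidylserine receptor TIM-4 (*Timd4*). In the bladder wall, macrophages lie in the lamina propria and between muscle bundles, where they take up debris and bacteria.

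On mm10, the build the authors aligned to, *Adgre1* (ENSMUSG00000004730) lies at chr17:57358691-57483527, *Cd68* (ENSMUSG00000018774) at chr11:69664213-69666153 and *Mrc1* (ENSMUSG00000026712) at chr2:14229392-14332057. *Cd163* (ENSMUSG00000008845) spans chr6:124304656-124330527 and *Timd4* (ENSMUSG00000055546) chr11:46810800-46844332. On chromosome 7 lie *Lyve1* (ENSMUSG00000030787) at chr7:110850607-110863239, *Folr2* (ENSMUSG00000032725) at chr7:101839988-101857194 and *Itgam* (ENSMUSG00000030786) at chr7:128062640-128118491. *Trem2* (ENSMUSG00000023992) lies at chr17:48346401-48354147. For *Csf1r* (ENSMUSG00000024621) the coordinates are left out. The exons of *Folr2* share 975 bases with *Gm10602* on the opposite strand, and those of *Csf1r* share 873 bases with *Hmgxb3*. The strand setting of the counting is not given in the sources used here, so reads of these overlaps cannot be told apart.

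PU.1, the product of *Spi1*, is the transcription factor that macrophages require throughout their life, and the core of its known site is GAGGAA. Promoters of 300 bases, from 250 before to 50 after the start, were given by RefSeq on GRCm38.p6 for 7 of the 10 genes, with 2 starts for *Folr2*. Searched on both strands, GAGGAA stood in the promoters of *Cd68*, *Itgam*, *Mrc1* and *Trem2* and in none of those of *Cd163*, *Folr2* and *Timd4*, and 28.3% of all 32851 promoters in the table held it. These 4 sequences are shown because they held the motif. *Cd163* and *Timd4*, whose promoters did not hold it, also rose from 10 to 26 months. Capitals mark GAGGAA and its reverse complement TTCCTC, and each sequence is written in the direction of its gene.
Cd68, chr11:69666121-69666420, minus strand: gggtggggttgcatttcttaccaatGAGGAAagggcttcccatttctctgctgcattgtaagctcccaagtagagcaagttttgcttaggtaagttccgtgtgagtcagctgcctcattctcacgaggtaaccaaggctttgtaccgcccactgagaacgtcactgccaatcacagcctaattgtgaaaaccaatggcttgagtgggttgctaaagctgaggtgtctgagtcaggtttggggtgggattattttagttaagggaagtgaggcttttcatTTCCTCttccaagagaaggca
Itgam, chr7:128062390-128062689, plus strand: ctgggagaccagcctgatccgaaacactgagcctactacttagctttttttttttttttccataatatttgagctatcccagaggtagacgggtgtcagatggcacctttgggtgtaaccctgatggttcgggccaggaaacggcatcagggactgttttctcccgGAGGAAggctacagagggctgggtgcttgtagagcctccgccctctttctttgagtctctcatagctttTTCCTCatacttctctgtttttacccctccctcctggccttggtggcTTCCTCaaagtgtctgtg
Mrc1, chr2:14229164-14229463, plus strand: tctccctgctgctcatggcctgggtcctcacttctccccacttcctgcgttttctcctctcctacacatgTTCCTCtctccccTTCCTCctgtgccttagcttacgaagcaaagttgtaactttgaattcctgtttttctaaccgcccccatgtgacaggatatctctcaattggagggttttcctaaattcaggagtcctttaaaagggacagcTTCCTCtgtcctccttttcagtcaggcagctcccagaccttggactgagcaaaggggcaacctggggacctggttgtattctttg
Trem2, chr17:48346151-48346450, plus strand: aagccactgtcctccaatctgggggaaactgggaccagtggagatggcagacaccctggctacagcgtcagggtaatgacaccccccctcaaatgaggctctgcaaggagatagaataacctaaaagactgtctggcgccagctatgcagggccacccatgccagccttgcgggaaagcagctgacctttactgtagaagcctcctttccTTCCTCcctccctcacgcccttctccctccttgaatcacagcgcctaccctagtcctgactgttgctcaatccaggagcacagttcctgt

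The promoters of *Mrc1* and *Itgam* each held 3 matches, that of *Cd68* held 2 and that of *Trem2* held 1. A match describes the letters only.

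Total counts ran from 15088372 to 52650259 per bladder, and 2 libraries stood apart in macrophage genes. Young replicate 2 was the highest young bladder for 8 of the 10 genes, and untreated old replicate 3 the highest untreated old bladder for 8 of the 10. The sum of 4 pan-leukocyte genes (*Ptprc* and others) was 255 CPM (TMM-normalized counts scaled to the library size) in young replicate 2 against a young median of 132 CPM. Values without either library are given beside the results that it moved most.

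Every one of the 10 genes was detected in all 32 bladders, with a lowest count of 26 (*Timd4*, n = 32). Compared between genes as mean CPM per kilobase of exon, *Cd68*, the lysosomal glycoprotein macrosialin, was the highest at 24.4 ± 5.58 (SD, n = 32), followed by *Csf1r* at 22.4 ± 2.48 and *Mrc1* at 17.9 ± 2.67. Next came *Lyve1* at 13.6 ± 2.97, *Cd163* at 13.1 ± 1.98 and *Adgre1*, the gene of F4/80, at 12.6 ± 6.17 CPM per kilobase. *Itgam*, the integrin chain CD11b, stood at 6.50 ± 1.91, *Folr2* at 4.05 ± 0.821, *Timd4* at 1.29 ± 0.491 and *Trem2* at 0.944 ± 0.317 CPM per kilobase. The value for *Trem2* is over the 4946 bases of exon listed for it in the count table. Ranges over bladders overlapped at every step of this order. The means differed by less than the larger SD between *Cd68* and *Csf1r*, among *Lyve1*, *Cd163* and *Adgre1*, between *Adgre1* and *Itgam*, and between *Timd4* and *Trem2*. Within each gene, the 6 groups were then ordered by mean CPM. Neighboring groups overlapped in every case but 1, the step from water-treated old to middle-aged bladders for *Lyve1*.

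**Figure D1:**
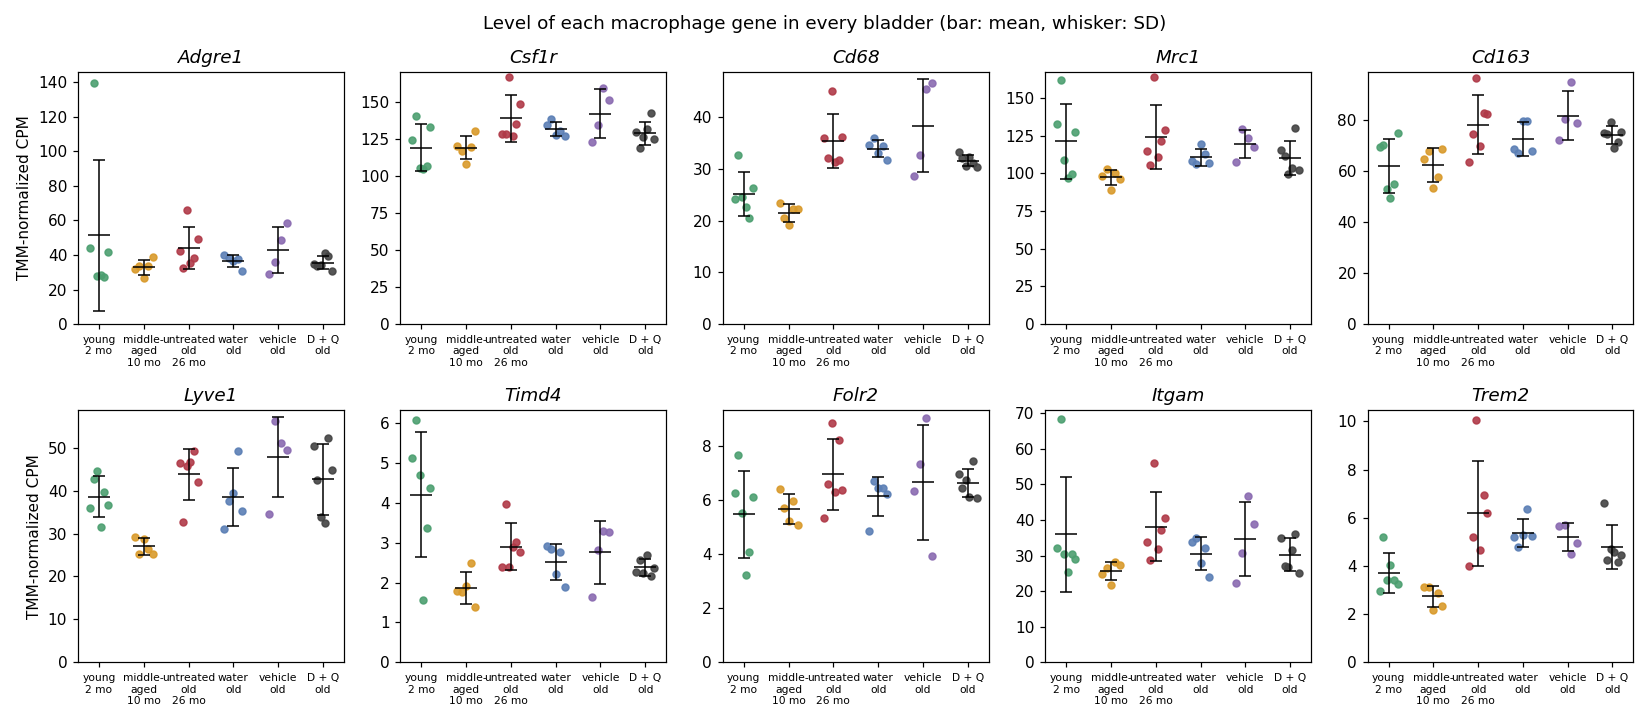
Levels of the 10 macrophage genes in every bladder, in TMM-normalized CPM (vertical axis from 0, a separate scale for each gene) by group. Points are bladders, with the mean and SD. The mean was lowest in middle-aged bladders for 8 of the 10 genes, and 1 young bladder reached 140 CPM for *Adgre1*.

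From 2 to 10 months, 2 of the 10 genes fell, *Lyve1* and *Timd4*, and none rose with an adjusted p under 0.05 (edgeR quasi-likelihood test, Benjamini-Hochberg over 16754 genes). Among all genes tested, 5.85% fell and 4.96% rose. *Lyve1*, a hyaluronan receptor of resident macrophages and of lymphatic endothelium, was measured in young bladders at 31.7 to 44.7 CPM (median 38.2). Middle-aged bladders had 29.3, 25.3, 28.7, 26.3 and 25.4 CPM of *Lyve1*. All middle-aged bladders lay below all young ones, and *Lyve1* was the only 1 of the 10 genes without overlap, against 6.97% of all genes tested. Its log2 fold change was -0.50 (SE 0.084, adjusted p = 0.00409). *Timd4*, whose product binds phosphatidylserine on dying cells, ranged from 1.56 to 6.10 CPM in young bladders (median 4.54). The middle-aged values of *Timd4* were 1.79, 1.77, 1.92, 2.50 and 1.38 CPM. Young replicate 4 held the low young value and overlapped with the middle-aged group, while the other young bladders were all higher. *Timd4* fell by 1.17 on the log2 scale (SE 0.268, adjusted p = 0.0177), but did not pass the test without middle-aged replicate 5 (adjusted p = 0.0573).

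The other 8 genes did not pass between 2 and 10 months. *Adgre1* had a log2 fold change of -0.64 (SE 0.384, adjusted p = 0.304), which was -0.03 without young replicate 2. That bladder had 140 CPM of *Adgre1*, and the other young bladders had 27.1 to 44.0 CPM. *Itgam* had 68.4 CPM in the same bladder against 25.3 to 32.1 CPM in the other young ones, and its log2 fold change of -0.48 (adjusted p = 0.175) was -0.18 without it. For *Trem2*, *Mrc1* and *Cd68* the log2 fold changes were -0.43, -0.31 and -0.22 (adjusted p = 0.113, 0.0992 and 0.193). Without young replicate 2, the value of *Mrc1* was -0.20 and that of *Cd68* was -0.12. *Csf1r*, *Cd163* and *Folr2* had log2 fold changes of 0.01, 0.02 and 0.05, each smaller than its SE. Young replicate 2 also had the highest summed level among young bladders for lists of core macrophage genes (1112 CPM, young median 683) and interstitial macrophage genes (1384 CPM, young median 1162). The same held for neutrophil genes (11.5 CPM, young median 4.27) and adipocyte genes (486 CPM, young median 331). It also held for dendritic, lymphatic, B cell and CSF1 receptor lists, but not for monocyte, natural killer or T cell genes. Nor did it hold for urothelial, smooth muscle or fibroblast genes. A list of genes of TREM2 and lipid-laden macrophages was highest in young replicate 4, at 3132 CPM (young median 2856). The part of any of these cells in the values of young replicate 2 was not tested.

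From 10 to 26 months, 8 of the 10 genes rose, against 13% of all 17156 genes tested that rose and 11% that fell. *Trem2*, *Cd68* and *Lyve1* had the largest log2 fold changes, at 1.18, 0.72 and 0.70, and *Csf1r* had the smallest, at 0.22. For 5 genes, *Cd68*, *Mrc1*, *Lyve1*, *Itgam* and *Trem2*, every untreated old bladder was above every middle-aged one, while ranges did not overlap for 14.6% of all genes tested. Over the 10 genes the log2 fold change had a median of 0.49, and over all genes tested one of -0.005. In whole bladders, fewer or more cells of a type and less or more RNA per cell cannot be told apart.

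*Trem2*, a lipid-sensing receptor of macrophages, had 3.13, 3.14, 2.19, 2.88 and 2.33 CPM in middle-aged bladders. Untreated old bladders had 3.99 to 10.1 CPM of *Trem2* (median 5.69). The old range began above the highest middle-aged value, and untreated old replicate 3 was the top. *Trem2* rose by 1.18 on the log2 scale (SE 0.217, adjusted p = 0.00188), and by 0.99 without that bladder (adjusted p = 0.00126). *Cd68* stood at 23.4, 20.4, 19.1, 22.3 and 22.2 CPM in middle-aged bladders. In untreated old bladders *Cd68* was 31.4 to 45.1 CPM (median 34.0). The gap between the groups was wider than the spread within the middle-aged group, and *Cd68* had a log2 fold change of 0.72 (SE 0.093, adjusted p = 0.000163). Without untreated old replicate 3, it was 0.64 (adjusted p = 4.72e-05).

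Among the scavenger and uptake receptors, *Lyve1* had 32.7 to 49.3 CPM in untreated old bladders (median 46.0), above all of the middle-aged values given for it. Untreated old replicate 2 was the lowest old bladder, and the log2 fold change of *Lyve1* was 0.70 (SE 0.090, adjusted p = 0.000159). *Mrc1* was measured at 98.4, 103, 89.2, 100 and 96.6 CPM in middle-aged bladders. The untreated old range of *Mrc1* was 106 to 164 CPM (median 118), just above the highest middle-aged bladder. *Mrc1* rose by 0.35 on the log2 scale (SE 0.096, adjusted p = 0.0182), by 0.26 without untreated old replicate 3 and by 0.32 without middle-aged replicate 3, where it did not pass (adjusted p = 0.0515). *Cd163*, which takes up hemoglobin bound to haptoglobin, had 53.1 to 68.4 CPM in middle-aged and 63.3 to 96.4 CPM in untreated old bladders, with overlap. Its log2 fold change was 0.33 (SE 0.10, adjusted p = 0.0308), and it passed in 5 of the 11 fits that left out 1 bladder. Without untreated old replicate 3 it was 0.26 and did not pass (adjusted p = 0.0504). *Timd4* had 2.38 to 3.98 CPM in untreated old bladders (median 2.84), overlapping the middle-aged group at its highest bladder. *Timd4* rose by 0.63 (SE 0.165, adjusted p = 0.0145) and passed in all 11 such fits. *Folr2* had 5.07 to 6.43 CPM in middle-aged and 5.34 to 8.88 CPM in untreated old bladders. Its groups overlapped and its log2 fold change of 0.29 (SE 0.125, adjusted p = 0.113) did not pass.

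Of the broader identity genes, *Itgam* had 24.8, 26.6, 21.8, 28.3 and 27.3 CPM in middle-aged bladders. Untreated old bladders had 28.8 to 56.1 CPM of *Itgam* (median 35.5). Old bladders began just above the middle-aged range, and the log2 fold change was 0.56 (SE 0.146, adjusted p = 0.0139). CD11b is also carried by neutrophils, monocytes and natural killer cells. The 8 neutrophil genes summed to 4.09 to 5.37 CPM in middle-aged and 5.97 to 14.2 CPM in untreated old bladders. Most of this was *Csf3r*, with means of 4.05 and 7.44 CPM. In the same groups *S100a8* had means of 0.0977 and 0.282 CPM, *S100a9* 0.146 and 0.462 CPM and *Ly6g* 0 and 0.0107 CPM. The part of neutrophils, monocytes and natural killer cells in *Itgam* was not tested. *Csf1r* had 108 to 130 CPM in middle-aged and 127 to 167 CPM in untreated old bladders. Its rise of 0.22 on the log2 scale (SE 0.073, adjusted p = 0.0403) was the smallest of the 8, and it passed in 6 of the 11 fits that left out 1 bladder. *Adgre1* had 26.8 to 38.8 CPM and 32.6 to 66.0 CPM in the same groups, with a log2 fold change of 0.42 (SE 0.162, adjusted p = 0.0835) that did not pass. Without untreated old replicate 3, at 66.0 CPM, that value was 0.27 (adjusted p = 0.122).

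Because *Lyve1* also marks lymphatic vessels, the other lymphatic endothelial genes are given beside it. Of 5 that were tested, *Mmrn1* and *Pdpn* rose from 10 to 26 months, by 0.45 (adjusted p = 0.000734) and 0.39 (adjusted p = 0.0298). *Prox1*, the transcription factor that defines lymphatic identity, had a log2 fold change of 0.02 (SE 0.180), and *Flt4*, the receptor VEGFR3, one of 0.05 (SE 0.062). The 6 genes summed to 110 to 128 CPM in middle-aged and 132 to 166 CPM in untreated old bladders, and *Ccl21a* was at 0 in both groups. From 2 to 10 months, where *Lyve1* fell, *Pdpn* fell by 0.66 (adjusted p = 0.00804), *Reln* rose by 0.41 (adjusted p = 0.0394) and the other 3 tested genes did not pass. The sum of the 6 genes in young bladders was 120 to 166 CPM. The part of lymphatic cells in the level of *Lyve1* was not tested.

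From 2 to 26 months, 2 of the 10 genes rose, *Cd68* and *Trem2*, against 12.6% of all genes tested that rose and 12.4% that fell. *Cd68* was 20.4 to 32.8 CPM in young bladders (median 24.4), overlapping untreated old bladders only through young replicate 2, and its log2 fold change was 0.49 (SE 0.115, adjusted p = 0.00678). *Trem2* had 2.95 to 5.21 CPM in young bladders (median 3.42), and its log2 fold change was 0.73 (SE 0.214, adjusted p = 0.0230). Without young replicate 6 the value of *Trem2* was 0.70 and did not pass (adjusted p = 0.0521). The ranges of all 10 genes overlapped between 2 and 26 months, whereas those of 12.7% of all genes tested did not. *Timd4* was lower in untreated old than in young bladders by its fitted value, -0.54 (SE 0.246), without passing (adjusted p = 0.129). Without young replicate 4, the lowest young bladder, its log2 fold change was -0.70 (adjusted p = 0.00853). *Lyve1* and *Mrc1* had log2 fold changes of 0.19 and 0.03 (adjusted p = 0.204 and 0.893). *Cd163* was close to the threshold (0.33, adjusted p = 0.0540), and *Csf1r*, *Folr2* and *Itgam* had log2 fold changes of 0.22, 0.34 and 0.08 (adjusted p = 0.0898, 0.225 and 0.856). *Adgre1* had -0.24 (adjusted p = 0.704), which turned to 0.38 without young replicate 2. Leaving out young replicate 2 raised the count of genes that passed to 4, with *Csf1r* (adjusted p = 0.0338) and *Cd163* (adjusted p = 0.0448). Leaving out untreated old replicate 3 as well, a choice made after seeing the data, returned it to 2. These 3 comparisons of ages share their groups and are not independent of each other.

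**Figure D2:**
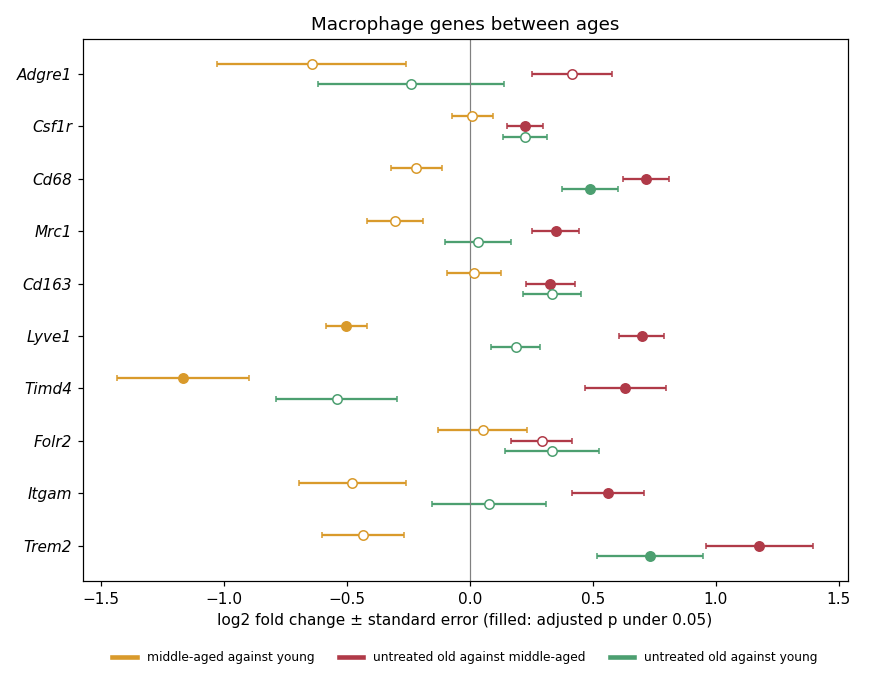
Log2 fold change of each macrophage gene with its standard error (horizontal axis) in the 3 comparisons of ages. Filled points passed an adjusted p under 0.05 (edgeR quasi-likelihood test). From 10 to 26 months all 10 values lie to the right of 0, from 0.22 for *Csf1r* to 1.18 for *Trem2*.

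Other macrophage genes were counted in lists beside the 10. Of 12 core macrophage genes, 9 rose from 10 to 26 months and none fell, with a median log2 fold change of 0.73. The largest were *Fcgr1*, the high-affinity IgG receptor (1.01, adjusted p = 0.00441), *Aif1* (0.96, adjusted p = 0.00192) and *C1qb* of complement C1q (0.95, adjusted p = 0.00121). Of 12 interstitial and perivascular macrophage genes, 7 rose, none fell and 5 did not pass, with a median of 0.30. Here *Ccl8*, a monocyte chemoattractant, had a log2 fold change of 2.91 (SE 0.479, adjusted p = 0.000879), *Vsig4*, a complement receptor, 1.50 (adjusted p = 0.0395) and *F13a1* 0.52 (adjusted p = 0.00253). From 2 to 10 months, the same interstitial list went both ways: *Cd209d*, *Cd209f* and *Cbr2* rose by 1.21, 0.90 and 0.49, and *Igf1* fell by 1.33. Between 2 and 26 months *Ccl8*, *Vsig4* and *Cd209d* had log2 fold changes of 2.80, 2.33 and 1.44. In the core list, *Sirpa* fell by 0.46 from 2 to 10 months, and *Lyz2* and *Siglec1* rose by 0.65 and 0.58 from 2 to 26 months.

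The ligands and regulators of the CSF1 receptor were read next. *Csf1* had 68.7 to 85.0 CPM in young and 47.9 to 63.6 CPM in middle-aged bladders, without overlap, and fell by 0.45 on the log2 scale (SE 0.074, adjusted p = 0.00379). From 10 to 26 months *Csf1* had a log2 fold change of 0.26 (SE 0.091, adjusted p = 0.0518) and *Il34* one of 0.12 (adjusted p = 0.298), and neither passed. *Il34* had not passed from 2 to 10 months either (-0.22, adjusted p = 0.170). *Spi1* had 10.7, 10.3, 8.95, 10.8 and 11.7 CPM in middle-aged bladders. Untreated old bladders had 13.3 to 22.6 CPM of *Spi1* (median 16.1), all of them higher. Its log2 fold change was 0.70 (SE 0.123, adjusted p = 0.00133), and *Irf8*, another factor of this lineage, had 0.70 (adjusted p = 0.000723) and *Runx1* 0.23 (adjusted p = 0.00268). In all, 4 of the 9 tested genes of this list rose from 10 to 26 months, none fell, and the median was 0.25. From 2 to 26 months *Tfec*, *Irf8* and *Runx1* rose by 0.95, 0.51 and 0.46.

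Genes that act with TREM2, or are known from lipid-laden macrophages, were mixed from 10 to 26 months. Of 12, 5 rose, 1 fell and 6 did not pass, with a median log2 fold change of 0.09. *Spp1*, the secreted osteopontin, rose by 1.42 (adjusted p = 0.00387), *Itgax*, the integrin chain CD11c, by 0.85 (adjusted p = 0.00305) and *Apoe*, a lipid carrier and ligand of TREM2, by 0.55 (adjusted p = 0.00646). *Cd9*, a tetraspanin found in many cells of the bladder, fell by 0.12 (adjusted p = 0.0426). *Lpl*, a lipase that adipocytes also make, fell by 0.89 from 2 to 10 months and by 0.84 from 2 to 26 months. *Gpnmb* and *Itgax* rose by 0.54 and 0.52 from 2 to 26 months.

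Many genes of other white blood cells also rose between 10 and 26 months. All 4 pan-leukocyte genes rose, *Ptprc* (CD45) by 1.70 (SE 0.154, adjusted p = 1.25e-05), from 26.0 to 30.2 CPM in middle-aged to 61.3 to 119 CPM in untreated old bladders. All 8 T cell genes rose (median 2.46, *Cd8a* 3.43, *Trac* 2.98 and *Cd3d* 2.54), and 7 of 8 B cell genes rose (median 4.07, *Ms4a1* 5.00, *Pax5* 4.67 and *Cd79a* 4.49). Of 6 classical monocyte genes, 5 rose with a median of 1.62. Among them were *Ly6c2* (3.20) and *Chil3* (2.57). Of 8 dendritic cell genes 4 rose (*Ccr7* 1.25, *Xcr1* 0.96 and *Batf3* 0.69), of 6 natural killer cell genes 2 rose (*Eomes* 2.96 and *Prf1* 1.53), and *Csf3r*, the only neutrophil gene with enough counts to be tested, rose by 0.88. By mean CPM, *Ncr1*, *Klrb1c* and *Gzma* of the natural killer list were lower, from 0.773 to 0.537, 0.973 to 0.747 and 1.73 to 1.22. *Klre1* was higher, from 0.413 to 0.631. Of the dendritic list, *Cd209a* and *Siglech* had lower means, from 17.8 to 15.6 and 5.13 to 4.43, and the others had higher means. No tested urothelial, smooth muscle or fibroblast gene rose. Of 6 genes each, 3 urothelial genes fell (*Upk2* -0.23, *Upk3a* -0.19 and *Upk1a* -0.15), 2 smooth muscle genes fell (*Smtn* -0.32 and *Myh11* -0.24), and 1 fibroblast gene fell (*Lum* -0.41). None of the 6 adipocyte genes passed in either direction, although their median log2 fold change was 0.72.

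**Figure D3:**
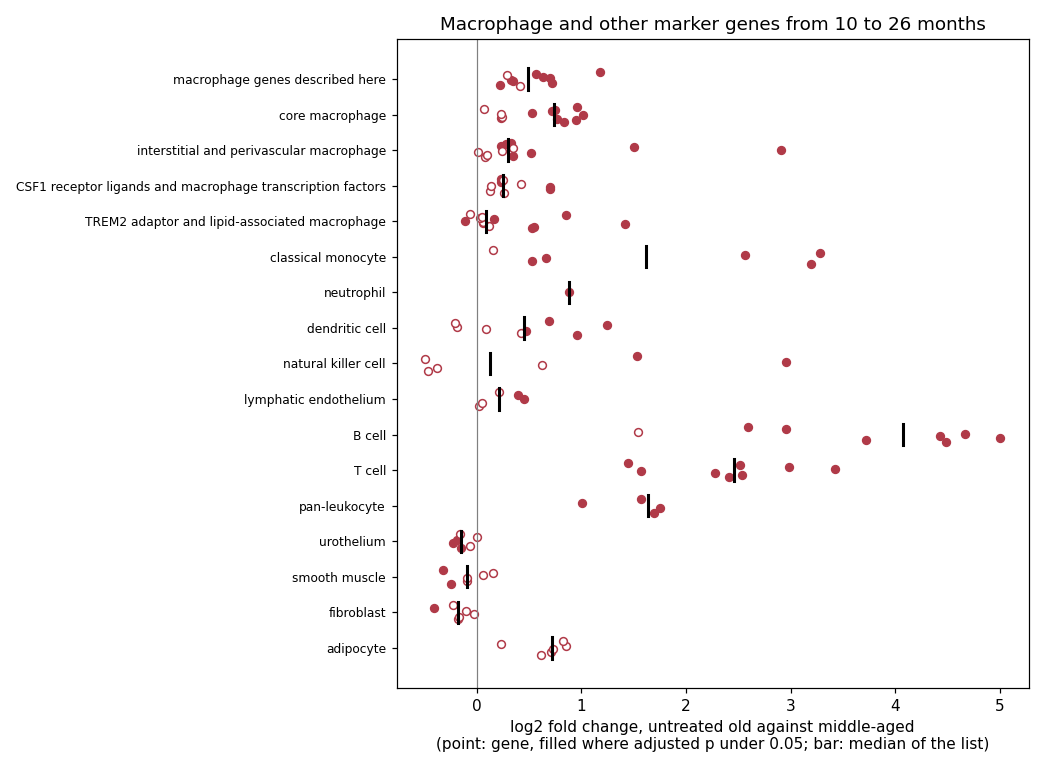
Log2 fold change from 10 to 26 months (horizontal axis) of each tested gene in the macrophage lists and the lists of other cell types. Filled points passed an adjusted p under 0.05, and the bar is the median of the list, 0.49 for the 10 genes described here, 2.46 for T cell genes and 4.07 for B cell genes.

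The level of each gene was then set against *Ptprc* and against *Csf1r* in the same bladder, as a difference in log2(CPM + 0.1), without a test. Relative to *Ptprc*, 9 of the 10 genes were lower in all untreated old than in all middle-aged bladders, but so were 92.7% of all genes tested, since *Ptprc* itself was higher. *Csf1r* relative to *Ptprc* was 2.10 ± 0.130 (SD, n = 5) in middle-aged and 0.66 ± 0.352 (SD, n = 6) in untreated old bladders. *Trem2* was the exception with overlap, at -3.31 ± 0.162 and -3.87 ± 0.550. Relative to *Csf1r*, 2 of the other 9 genes, *Cd68* and *Trem2*, were higher in all untreated old than in all middle-aged bladders, against 4.05% of all genes tested. *Cd68* relative to *Csf1r* went from -2.46 ± 0.076 in middle-aged to -1.98 ± 0.098 in untreated old bladders. *Trem2* relative to *Csf1r* was -5.40 ± 0.241 and -4.53 ± 0.335 in these groups. *Lyve1* relative to *Csf1r* was -2.14 ± 0.171 and -1.67 ± 0.242, with overlap, and in young bladders it was -1.62 ± 0.241. *Mrc1* and *Cd163* relative to *Csf1r* differed by less, at -0.29 ± 0.090 and -0.17 ± 0.084 for *Mrc1* and -0.94 ± 0.110 and -0.84 ± 0.105 for *Cd163*.

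**Figure D4:**
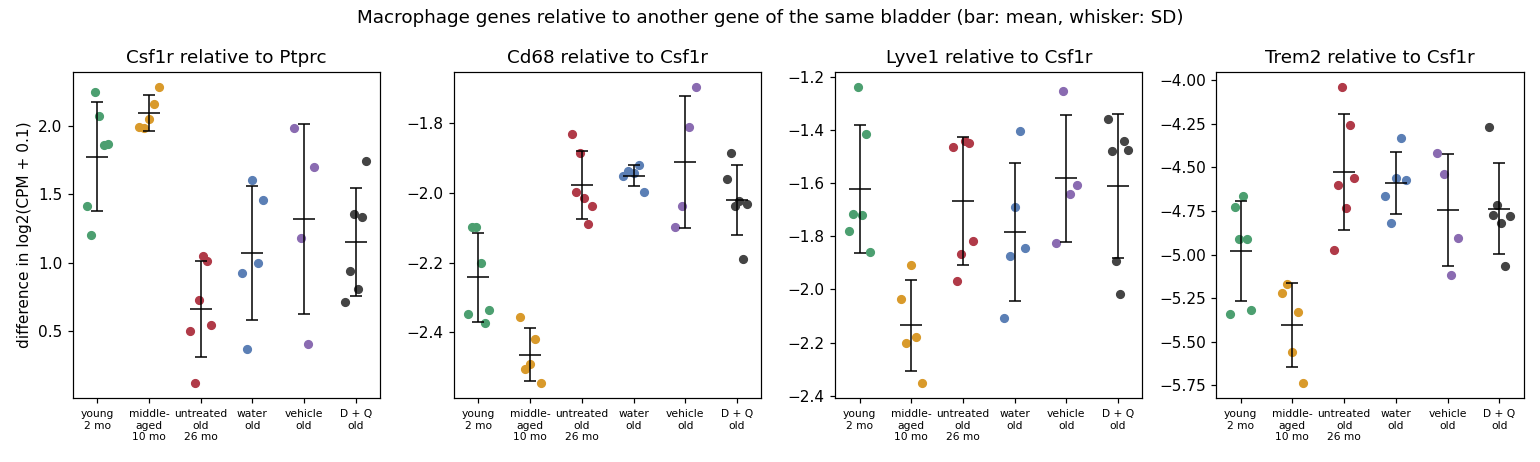
Difference in log2(CPM + 0.1) between a macrophage gene and another gene of the same bladder (vertical axis) by group, with mean and SD. *Csf1r* relative to *Ptprc* was lower in untreated old bladders, while *Cd68* and *Trem2* relative to *Csf1r* were higher there than in every middle-aged bladder.

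After D + Q, none of the 10 genes passed against untreated old bladders, nor did any gene in the fit (0% of 17037). All 10 had a lower fitted level, with log2 fold changes of -0.37 to -0.04 and a median of -0.17, while 49.3% of all genes had a lower one. After water all 10 were lower too, at -0.31 to -0.06 against the same untreated old bladders. After vehicle, *Csf1r*, *Cd68*, *Cd163* and *Lyve1* were higher than in these bladders (0.03, 0.12, 0.06 and 0.13). The other genes were lower after vehicle, down to -0.25 for *Trem2*. For D + Q against untreated old bladders, 2 of the 10 had an unadjusted p under 0.05, *Itgam* and *Timd4*, against 12.9% of all genes. DESeq2 also called none of the 10 there. *Trem2* had 6.62, 4.25, 4.71, 4.56, 4.15 and 4.44 CPM in the 6 D + Q-treated bladders. Replicate 1 was the highest and lay within the untreated old range, as did the others. Its log2 fold change of -0.37 (SE 0.201, adjusted p = 0.447) was the largest of the 10 in size, but was -0.18 without untreated old replicate 3 (adjusted p = 0.646). *Itgam* had 25.1 to 36.2 CPM after D + Q (median 29.3), with a log2 fold change of -0.33 (SE 0.148, adjusted p = 0.372), which was -0.19 without untreated old replicate 3. *Timd4* had 2.16 to 2.7 CPM (median 2.32) and a value of -0.29 (SE 0.126, adjusted p = 0.368). *Adgre1* had 30.8 to 41.1 CPM (median 34.3) and a value of -0.31 (SE 0.147, adjusted p = 0.405). *Cd68* was 30.4 to 33.2 CPM after D + Q (median 31.6), inside the untreated old range but for its lower end, with a value of -0.16 (SE 0.079, adjusted p = 0.409). *Mrc1*, *Csf1r*, *Cd163*, *Folr2* and *Lyve1* had log2 fold changes of -0.17, -0.11, -0.08, -0.07 and -0.04. Without untreated old replicate 3 the values of *Adgre1*, *Cd68* and *Mrc1* were -0.16, -0.08 and -0.08, that of *Folr2* was 0.01, and *Timd4* had the largest in size at -0.34. These values share the untreated old bladders, untreated old replicate 3 included, with the comparison from 10 to 26 months.

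Water and vehicle were set against untreated old bladders in the same way. Against untreated old bladders, none of the 10 genes passed after water (1% of all genes did), and none had an unadjusted p under 0.05 (16% of all genes). The water-treated values ran from -0.31 for *Itgam* (SE 0.160) to -0.06 for *Cd68* (SE 0.088). After vehicle none passed either (0% of all genes), and none had an unadjusted p under 0.05 (8.39% of all genes). The vehicle-treated values ran from -0.25 for *Trem2* (SE 0.230) to 0.13 for *Lyve1* (SE 0.139). Vehicle-treated bladders spread widely: *Cd68* was 28.6, 32.7, 45.4 and 46.6 CPM, and *Lyve1* was 34.6, 56.3, 51.0 and 49.5 CPM.

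Compared directly, D + Q-treated against vehicle-treated bladders gave no gene that passed (0% of 17267), and 1 of the 10 had an unadjusted p under 0.05 (4.18% of all genes). That gene was *Cd68*, with a log2 fold change of -0.28 (SE 0.124, adjusted p = 0.994). All 10 had a lower fitted level after D + Q than after vehicle, from this value to -0.02 for *Folr2* (SE 0.183). The share of all genes with a lower level is not given for this comparison. D + Q-treated against water-treated bladders also gave none (0% of 17161), with 1 of the 10 at an unadjusted p under 0.05 (7.82% of all genes). Again it was *Cd68*, at 34.5, 36.0, 33.0, 34.4 and 31.8 CPM after water, with a log2 fold change of -0.11 (SE 0.044, adjusted p = 0.604). Against water, *Lyve1*, *Folr2* and *Cd163* were higher after D + Q, at 0.14 (SE 0.140), 0.10 (SE 0.098) and 0.02 (SE 0.058). The others were lower, *Trem2* the most at -0.17 (SE 0.130). Each of these comparisons shares a group with another, and no p here shows that the groups had equal levels.

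**Figure D5:**
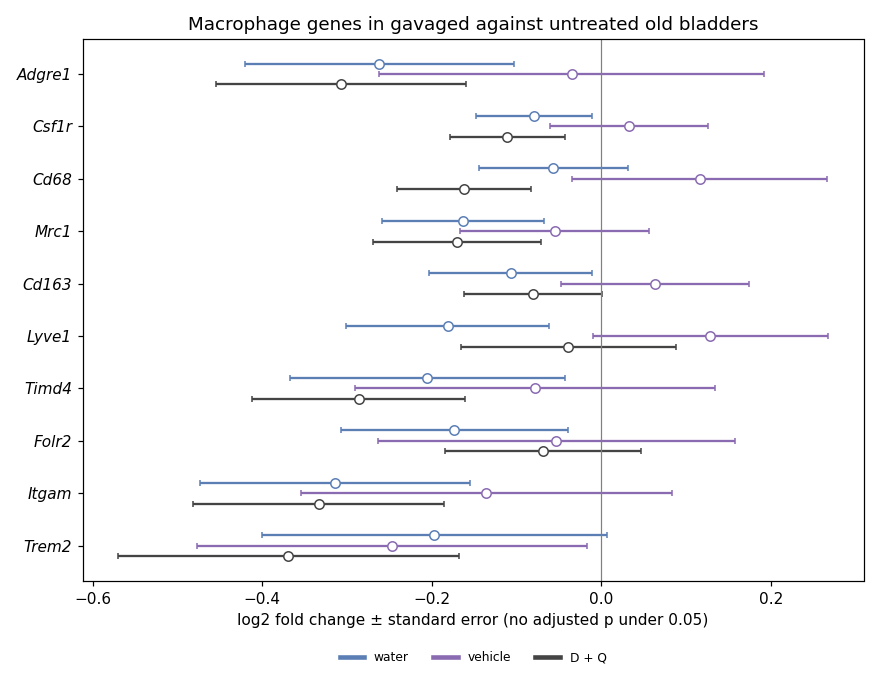
Log2 fold change of each macrophage gene with its standard error (horizontal axis) in water-treated, vehicle-treated and D + Q-treated against untreated old bladders. No value passed an adjusted p under 0.05. The D + Q values ran from -0.37 to -0.04 and the water values from -0.31 to -0.06.

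Finally, genes were ranked by how closely they followed each of the 10 between bladders of the same group, as Pearson's r of deviations from group means over 32 bladders and 18093 genes. The genes share the same libraries and scaling, so r is a description. *Cd68* and *Csf1r* were followed by the complement C1q genes: *C1qc*, *C1qb* and *C1qa* for *Cd68* (r = 0.93, 0.90 and 0.90) and *C1qa*, *Pirb* and *C1qb* for *Csf1r* (r = 0.89, 0.89 and 0.87). *Adgre1* was followed by *Fcer1g*, *Ms4a7* and *Aoah* (r = 0.93, 0.93 and 0.92), *Mrc1* by *F13a1*, *C3ar1* and *Aoah* (0.92, 0.86 and 0.84) and *Itgam* by *Cyth4*, *Prex1* and *Clec4a3* (0.91, 0.90 and 0.90). *Cd163* was followed by *Mrap*, *Csf1r* and *Ccl8* (r = 0.74, 0.74 and 0.72). *Lyve1* had the lymphatic gene *Flt4* among its nearest (*Nts*, *Flt4* and *Emilin2*, r = 0.69, 0.66 and 0.66). For *Trem2* they were *Wfdc17*, *Il4ra* and *Xdh* (0.73, 0.72 and 0.66), for *Timd4* *Ccl28*, *Cdca5* and *Stap1* (0.81, 0.79 and 0.78) and for *Folr2* *Clec2d*, *Cip2a* and *Fut11* (0.85, 0.81 and 0.80). Among the 45 pairs of the 10 genes, the median r was 0.44, and *Adgre1* with *Itgam* had the highest at 0.88. Without young replicate 2 and untreated old replicate 3 the median was 0.37, *Adgre1* with *Itgam* had 0.73, and 11 of the 30 nearest genes stayed the same. Those of *Csf1r* were then *Adgre1*, *Aoah* and *Dnajb13*, with no C1q gene, whereas *Cd68* kept *C1qc* and *C1qb*. *Flt4* was no longer among the nearest of *Lyve1*, which were *Emilin2*, *Nts* and *Gm43305*.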

How the data were processed

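Whole bladders of female C57BL/6 mice were sequenced as stranded total RNA, 1 library per bladder. The authors aligned reads to mm10 with STAR 2.7.3, counted them per gene with Subread featureCounts and deposited raw counts, without normalization or pooling, of 32285 genes, of which 32158 could be given a symbol and 127 could not. The summed exon length of each gene, the other unit the authors deposited, served for levels per kilobase only. A table of log2 normalized expression from the same counts was not used here. Bladders were grouped by age and treatment per the labels. Where nothing says that bladders came from separate cages or days, p-values measure only the spread between these bladders, and no sequencing batch is given in the sources used here. No library was identical to another.

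Summed counts were 15088372 to 52650259 per bladder, and none of the 10 genes was near the floor of 3 counts. CPM used TMM factors over all 32 bladders. The 8 comparisons of 2 groups were fitted on all genes with edgeR 4.0.16 in R 4.3.3 (TMM, filterByExpr, quasi-likelihood test, Benjamini-Hochberg, threshold 0.05), and all 10 genes passed the filter in each. SE is the absolute log2 fold change divided by the square root of F. Ratios and likeness used log2(CPM + 0.1). The code was tested on simulated data.

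The 10 genes and the 16 lists of other markers were chosen with earlier results of these data known. Named are all 10 genes, *Ptprc*, *Csf1* and *Il34*, up to 3 genes per list and comparison with the largest absolute log2 fold change among those that passed, and the 3 genes most like each of the 10, and 2 genes that this rule takes are not reported here. *Spi1*, *Prox1*, *Flt4*, *Ly6g*, *Ccl21a* and the genes of young replicate 2 were named after their values were seen where they fell outside this rule. The same holds for *S100a8*, *S100a9* and the natural killer and dendritic cell genes given by mean CPM. Alternatives were DESeq2 1.42.0, the likelihood ratio test, upper quartile scaling, no filter, a minimum of 10 counts per bladder, a single fit over all 6 groups, the replicate number as a block, a pseudocount of 1 and each bladder left out in turn. Leaving out 2 bladders together and a block by the numbers of the count table, which differ from those of the titles for 6 bladders, were added after seeing the data. Tables and plots used Python 3.11.15 and matplotlib 3.10.9.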

Additional observations from a re-analysis of the deposited data

Results flagged for a closer look

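A total of 5 values stood far from the other bladders of their group by Dixon's test, out of 60 groups of bladders examined, where chance alone gives about 1 in 20. *Adgre1* in young replicate 2 was 140 CPM, and *Itgam* in the same bladder was 68.4 CPM. *Cd68* in untreated old replicate 3 was 45.1 CPM, *Folr2* in water-treated old replicate 1 was low at 4.87 CPM, and *Trem2* in D + Q-treated old replicate 1 was high at 6.62 CPM.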

How the results depend on the processing

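Values are counts of the 10 genes past the threshold unless named. From 10 to 26 months the count of 8 was 5 with all 6 groups in a single fit and 5 to 9 with 1 bladder left out (5 without middle-aged replicate 3), and 8 under the other settings without the block. *Cd68*, *Lyve1*, *Timd4*, *Itgam* and *Trem2* passed in all 11 fits that left out 1 bladder. From 2 to 10 months the count of 2 ranged from 1 (without middle-aged replicate 5) to 3. From 2 to 26 months the count of 2 was 4 with all 6 groups and 2 to 4 with 1 bladder left out (4 without young replicate 2). No setting gave a count above 0 in the 5 comparisons with gavaged bladders. Whether replicate numbers pair bladders was not settled. Of 40 pairs with the same number, 5 had a correlation of deviations over 0.1 (-0.296 to 0.162). The own number was the best match in 12, most of them in the comparisons of ages. With the replicate number as a block the counts were 1 from 2 to 10 months, 4 from 10 to 26 months and 2 from 2 to 26 months, and 0 elsewhere, and the log2 fold change of *Adgre1* from 2 to 26 months was 0.0411.

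The numbers are those of the sample titles, and 6 bladders carry another number in the count table. With the numbers of the count table, added after seeing the data, 9 of 40 pairs had a correlation over 0.1 (-0.296 to 0.219), and the block gave 1 from 2 to 10 months (893 of all genes), 9 from 10 to 26 months and 0 with gavaged bladders, with *Csf1r* at -0.0136 and *Cd163* at -0.0108 from 2 to 10 months. By these numbers the own number was the best match in 11 pairs, again mostly in the comparisons of ages.

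Signs turned only in values that had not passed. From 2 to 10 months *Csf1r* was -0.00155 with all 6 groups and -0.0309 to 0.0644 with 1 bladder left out, *Cd163* -0.0464 to 0.0762 and *Folr2* -0.0613 to 0.177. From 2 to 26 months *Adgre1* was -0.387 to 0.376 (0.226 without young replicate 2 and untreated old replicate 3 together), *Mrc1* -0.0603 to 0.135 and *Itgam* -0.0644 to 0.371. After D + Q against untreated old bladders, *Lyve1* was -0.109 to 0.0301 and *Folr2* -0.134 to 0.0118. Counts over all genes moved by more than 1.5 times from 2 to 10 months (1811, against 716 with the block, 2858 with all 6 groups and 728 without middle-aged replicate 5) and from 10 to 26 months (4110, against 2519 with all 6 groups). D + Q against untreated old bladders gave 0 of all genes with the main test, 180 with DESeq2 and 22 with the likelihood ratio test, and water gave 173, 703 with DESeq2 and 0 with the block. The cause was not tested. Of 30 nearest genes, 27 were shared with a pseudocount of 1. *Timd4*, *Trem2* and *Folr2* had the fewest reads, down to 26, 50 and 54 counts in a bladder, which limits their precision.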

Other observations

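In young replicate 2, genes with a mean over 3 CPM across the 32 bladders were ranked, after seeing the data, by the ratio of CPM + 0.1 to that of the highest other young bladder. *Slc13a3*, a dicarboxylate transporter, came first at 61.7 CPM against 0.841 to 1.84 CPM in the others. *Fcrl5*, *Cd72* and *Siglece*, receptors of leukocytes, came next, with *Cd72* at 23.7 CPM against 1.95 to 3.27 CPM and *Siglece* at 16.9 CPM against 1.61 to 2.93 CPM. *Adgre1* ranked 19, *Itgam* 49 and *Trem2* 274, whereas *Csf1r* ranked 1067, *Lyve1* 3442 and *Cd163* 4133 and were within or close to the range of the other young bladders. The hemoglobin gene *Hbb-bs* was 249 CPM against 31.1 to 83.4 CPM in the others.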
